A study of Rattus norvegicus with 25 samples.

Results

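The genes described here drive DNA replication and cell division. They were taken from a list of 36 symbols, and each symbol was looked up in the counts of all 25 libraries. Of these, 34 had an entry (11 S phase genes and 23 of 25 mitosis genes), among 16881 distinct symbols in all. Cenpe and Ncapg had none under that name. No member symbol was repeated, and all 34 were among the 11492 genes that passed the filter on low counts.

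RNA was measured in tooth and periodontal ligament of Sprague–Dawley rats whose upper first molars had been pulled, dried in air and put back in the socket. Teeth of the group called IR (immediate replantation) were dry for 5 min and those of the group called DR (delayed) for 60 min, and rats were killed 3 or 7 days afterwards. Each of these 4 replanted groups held 6 libraries. A sample labelled NT, with control as its treatment and its time, gave 1 library. All 25 carry the age postnatal day 21, and it is not stated whether that age refers to surgery or to collection, so NT and the replanted groups may differ in age. The labels name no genotype and do not say that libraries came from separate animals, so the p-values below measure only the spread between libraries, which may be technical.

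A dividing cell copies its DNA in S phase and then separates the copies in mitosis. The minichromosome maintenance proteins (Mcm2 to Mcm7) form the ring-shaped helicase that opens the DNA, Pcna is the clamp that holds the polymerase, and ribonucleotide reductase (Rrm1, Rrm2), thymidylate synthase (Tyms) and thymidine kinase (Tk1) supply nucleotides. Cdk1 with the B cyclins starts mitosis, Aurora and Polo kinases with kinesin motors build and run the spindle, and Cdc20 with Ube2c marks proteins for destruction so that the cell can leave mitosis. In the periodontal ligament, cell division supplies fibroblasts, cementoblasts and osteoblasts, and dividing cells in a healing socket can also be blood precursors, endothelium or epithelium. In bulk tissue, fewer dividing cells and less RNA per dividing cell cannot be told apart.

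Genes of these phases are known to be switched by different promoter elements: E2F factors act on many S phase genes, and the cell cycle homology region (CHR), often with CCAAT boxes, on many mitosis genes. RefSeq promoter windows of 300 bases (250 before and 50 after the annotated start, build GRCr8) matched 27 of the 34 members, and the others were Mcm4, Rrm2, Ccna2, Aurkb, Tpx2, Ube2c and Racgap1. Both strands were searched. The letters taken for a CHR were TTTGAA, with TTCGAA as its other form. The box searched beside it was CCAAT. The forms of an E2F site were TTTCCCGC, TTTCGCGC, TTTGCCGC and TTTGGCGC. In 1 member a CHR and a CCAAT box shared a base. An E2F site lay in 6 of 9 S phase promoters (66.7%), in 1 of 18 mitosis promoters (5.56%, Cdk1) and in 2.25% of all 27457 promoters. A CHR lay in 3 of 9 S phase promoters (33.3%), in 13 of 18 mitosis promoters (72.2%) and in 19.5% of all. CCAAT boxes lay in 6 of 9 (66.7%), 14 of 18 (77.8%) and 37.7%. A match of letters is a description of the window and not a shown binding site. The windows of 5 members are printed 5′ to 3′ with these motifs, on either strand, in capitals. Top2a (topoisomerase, chr10:84473044-84473343 (minus strand)) and Cdk1 (chr20:19265043-19265342 (plus strand)) stand for mitosis genes and Mcm3 (chr9:30733697-30733996 (minus strand)) for S phase genes that followed Mki67 across libraries. Tyms (chr9:120776034-120776333 (minus strand)) and Cdc20 (chr5:137255750-137256049 (minus strand)) are shown because their levels did not follow it.
Top2a: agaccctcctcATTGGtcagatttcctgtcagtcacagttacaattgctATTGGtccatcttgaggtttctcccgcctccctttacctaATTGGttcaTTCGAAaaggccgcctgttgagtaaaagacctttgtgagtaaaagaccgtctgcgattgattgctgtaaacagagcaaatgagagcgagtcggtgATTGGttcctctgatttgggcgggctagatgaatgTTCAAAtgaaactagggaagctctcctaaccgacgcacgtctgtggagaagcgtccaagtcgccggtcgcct
Cdk1: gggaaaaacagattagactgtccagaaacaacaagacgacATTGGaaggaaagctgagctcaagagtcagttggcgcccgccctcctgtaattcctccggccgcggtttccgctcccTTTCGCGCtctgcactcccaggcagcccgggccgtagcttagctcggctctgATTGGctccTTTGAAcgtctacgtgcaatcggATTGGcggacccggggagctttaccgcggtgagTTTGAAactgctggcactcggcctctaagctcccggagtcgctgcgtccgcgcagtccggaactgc
Mcm3: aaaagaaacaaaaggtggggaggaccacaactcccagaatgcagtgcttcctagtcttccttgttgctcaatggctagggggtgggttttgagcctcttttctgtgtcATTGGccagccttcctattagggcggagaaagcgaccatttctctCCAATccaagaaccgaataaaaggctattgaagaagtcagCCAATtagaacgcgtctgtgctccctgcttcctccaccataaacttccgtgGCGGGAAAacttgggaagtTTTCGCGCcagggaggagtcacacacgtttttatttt
Tyms: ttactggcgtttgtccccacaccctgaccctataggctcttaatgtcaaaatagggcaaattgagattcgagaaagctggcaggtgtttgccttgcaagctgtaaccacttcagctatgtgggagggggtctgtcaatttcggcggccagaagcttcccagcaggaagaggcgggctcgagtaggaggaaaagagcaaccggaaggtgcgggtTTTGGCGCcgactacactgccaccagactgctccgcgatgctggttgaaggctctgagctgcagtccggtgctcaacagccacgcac
Cdc20: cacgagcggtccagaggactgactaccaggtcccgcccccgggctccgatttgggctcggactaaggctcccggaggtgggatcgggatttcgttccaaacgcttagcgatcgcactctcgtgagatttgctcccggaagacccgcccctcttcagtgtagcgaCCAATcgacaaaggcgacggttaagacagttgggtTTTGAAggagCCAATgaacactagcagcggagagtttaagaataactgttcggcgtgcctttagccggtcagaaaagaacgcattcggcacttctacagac

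Depth ran from 5005100 to 8740300 counts in the replanted libraries and was 8494000 in NT. Levels are given as CPM, counts scaled to the size of the library. The members took 0.0315% to 0.167% of the counts of a replanted library and 0.158% of those of NT. The libraries of day 3 stood apart from each other. In IR day 3 replicate 6 the 3 lipid gland markers (Elovl3, Mogat1 and Thrsp) summed to 30734 CPM, and in DR day 3 replicates 1 to 3 to 13371 to 23621, against 2.52 to 4834 in the other replanted libraries and 39.0 in NT. The 6 ligament markers with an entry were Postn, Tnmd, Scx, Aspn, Col1a1 and Col3a1. Their sum was 596 CPM in IR day 3 replicate 6 and 2220 to 7558 in DR day 3 replicates 1 to 3. It was 10965 to 94613 in the other replanted libraries and 146410 in NT. Single markers of the list differed. Postn was at 2797 CPM in NT and at most 1164 in the replanted libraries. Tnmd was at 9.19 CPM in NT but reached 19.2 in IR day 7 and 16.6 in DR day 7. In IR day 3 replicates 3 and 4 the 6 nasal gland markers with an entry summed to 307560 and 381260 CPM, against at most 71676 elsewhere. Dspp, the defining odontoblast gene, was at 1065 CPM in NT and at 0 to 39.1 in the replanted libraries. Dmp1, from the same odontoblast and pulp list, did not follow it, at 647 CPM in NT and 5.01 to 978 in the replanted libraries. The 5 markers of that list summed to 2291 CPM in NT and to 9.02 to 1188 in the replanted libraries. These 6 day 3 libraries of high gland level are left out wherever a result below is given without them.

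Mki67, the nuclear protein commonly used to mark dividing cells, showed how the members differed between libraries. Its lowest, median and highest levels were 2.41, 42 and 134 CPM in IR day 3 and 12.1, 21.6 and 93.6 CPM in DR day 3. At day 7 they were 18, 31.6 and 49.8 CPM in IR and 23.8, 46.9 and 53.5 CPM in DR, and NT stood at 67.9 CPM. The 4 replanted groups overlapped, and both ends of the scale were day 3 libraries. Top2a, which untangles DNA strands, ran at day 3 from 8.22 over 37 to 120 CPM in IR and from 10.2 over 23 to 127 CPM in DR, and at day 7 from 26 over 46.6 to 66.1 CPM in IR and from 24.4 over 52.2 to 70.3 CPM in DR. NT held 64.9 CPM of it. The 4 lowest libraries for both genes were DR day 3 replicates 1 to 3 and, below them, IR day 3 replicate 6. Mcm2, a subunit of the replicative helicase, ran at day 3 from 2.41 over 18.1 to 39.3 CPM in IR and from 6.43 over 18 to 36 CPM in DR, and at day 7 from 18.9 over 23.1 to 28.3 CPM in IR and from 19 over 25.9 to 33.2 CPM in DR. Its level in NT was 63.2 CPM, above every replanted library.

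**Figure D1:**
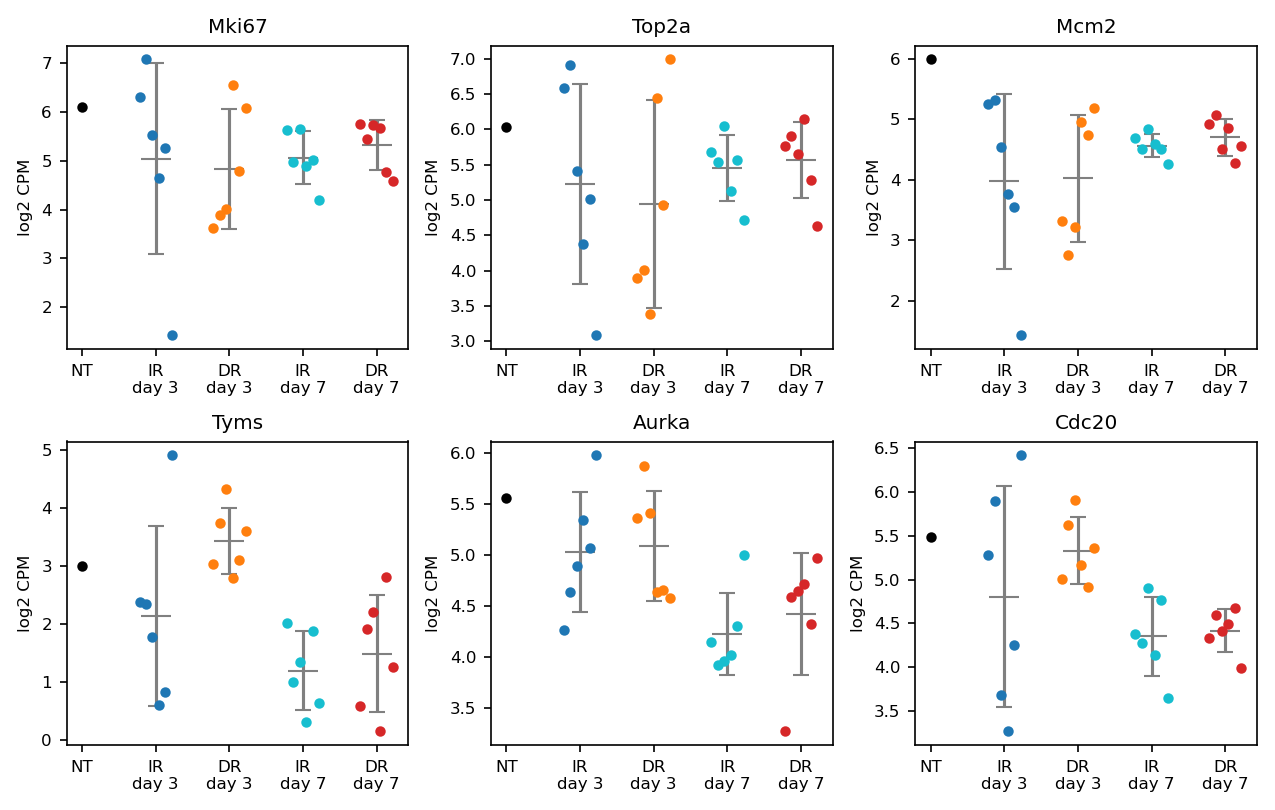
Level of 6 members in each library (y axis, log2 CPM with a prior count of 2; x axis, group; points in a group run from replicate 1 to 6 from left to right; gray bars, mean and SD of the 6 libraries; NT has 1 library). Mki67, Top2a and Mcm2 spread over several log2 units at day 3 and narrowly at day 7, while Tyms, Aurka and Cdc20 are highest in IR day 3 replicate 6, the library lowest for the other 3.

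Because each QuantSeq read stands for the 3′ end of a transcript, a level does not grow with transcript length. The annotation was not given, so it is not known whether the 3′ end of each gene was fully counted. The order of genes by level carries that limit. Pcna, Cenpf (a kinetochore protein) and Rrm1 were the most abundant members, with mean log2 CPM over the 24 replanted libraries of 6.08, 5.85 and 5.53. Racgap1 (a regulator of cytokinesis), Tyms and Mcm5 were the least abundant, at 0.20, 2.06 and 2.10. The SD over the 24 libraries was largest for Tyms (1.30), Ndc80 (1.30, a kinetochore protein that binds microtubules) and Aurkb (1.28, the kinase of the chromosomal passenger complex), and smallest for Pcna (0.39), Rrm1 (0.45) and Mcm7 (0.54). So the 2 S phase genes that were among the most abundant were also among the steadiest.

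The SD within a group, pooled over IR and DR, was larger at day 3 than at day 7 for all 34 members, against 83.7% of all genes tested. The median of this SD of the members' log2 CPM was 1.34 at day 3 and 0.41 at day 7, and over all genes tested it was 0.72 and 0.43. In IR day 3, replicate 6 was the lowest of the 6 libraries for 27 of 34 members (79.4%), a place it held for 33.6% of all genes. It was the highest of the 6 for Aurka, Cdc20, Pcna and Tyms. Ccnb2, Aurkb, Kif23 and Racgap1 had 0 counts there, which allows up to 0.601 CPM (3 counts, for counting error only). In DR day 3, replicates 1 to 3 were the 3 lowest libraries for 25 of 34 members (73.5%), against 20.4% of all genes. Aurka was the only member for which they were the 3 highest. Racgap1 had 0 counts in replicate 3, which allows up to 0.509 CPM. These are the 4 libraries with the highest lipid gland and lowest ligament sums, and the part of that tissue mix in the members' levels was not tested.

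**Figure D2:**
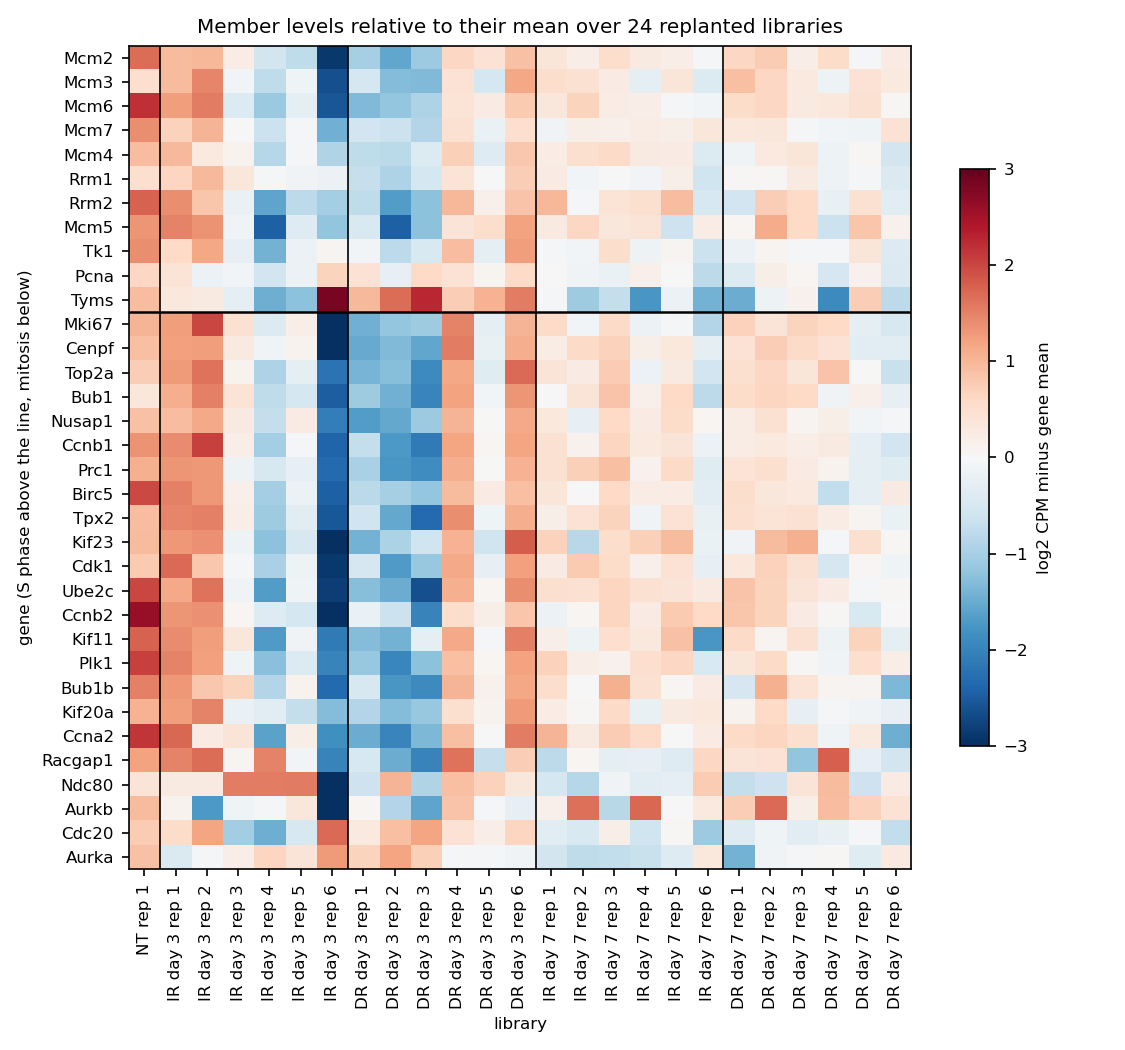
Log2 CPM of the 34 members in 25 libraries, each gene minus its own mean over the 24 replanted libraries (color, red higher and blue lower, limited to 3 log2 units; columns, libraries by group; rows, S phase genes above the line and mitosis genes below, ordered by their correlation with Mki67). At day 3, replicate 6 of IR and replicates 1 to 3 of DR are blue for most genes and red for Tyms and Aurka, and NT is above the replanted mean for all 34.

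S phase and mitosis genes were then set against each other in each library. The mean log2 CPM of the 11 S phase members was 4.09 ± 0.83 for IR and 4.16 ± 0.70 for DR at day 3, and 4.23 ± 0.23 for IR and 4.27 ± 0.28 for DR at day 7 (SD, n = 6 each), and 5.39 in NT. The mean of the 23 mitosis members was 3.65 ± 1.32, 3.57 ± 1.04, 3.95 ± 0.20 and 3.93 ± 0.26 in the same order, and 5.01 in NT. The difference, S phase minus mitosis, was 0.38 in NT. It was 0.15, 0.19, 0.19, -0.01, 0.10 and 2.01 in IR day 3 replicates 1 to 6, and 0.80, 0.60, 1.24, 0.01, 0.55 and 0.31 in DR day 3 replicates 1 to 6. At day 7 it ran from 0.17 over 0.23 to 0.45 in IR and from -0.07 over 0.36 to 0.72 in DR. The groups overlapped, and the 3 largest differences were in libraries with a high lipid gland sum. In IR day 3 replicate 6 the mitosis mean was 1.34 and the S phase mean 3.35, with Tyms at 29.7 CPM and Pcna at 107 CPM, the highest level of either in any replanted library. Without the 6 libraries of high gland level, the mean difference was 0.15 in IR day 3 (n = 3) and 0.29 in DR day 3 (n = 3). The value depends on which genes are averaged: without Tyms, Aurka and Cdc20 it was 0.67 in NT, 0.76 and 0.81 in IR and DR at day 3, and 0.61 and 0.66 at day 7.

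**Figure D3:**
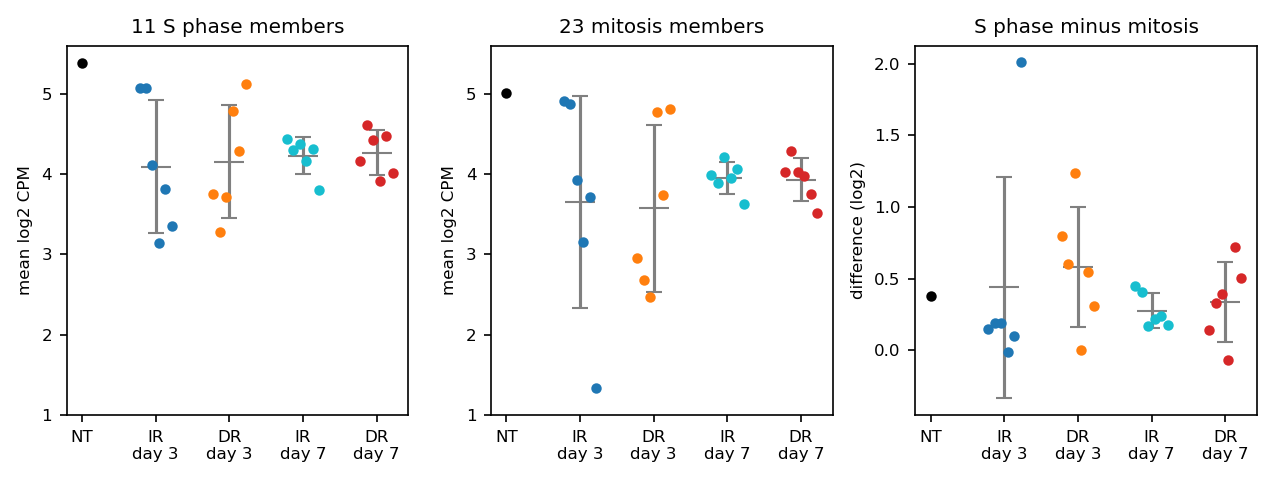
Mean log2 CPM of the S phase members (left), of the mitosis members (middle) and their difference (right), per library (points, replicates 1 to 6 from left to right; gray bars, mean and SD of 6; NT has 1 library). The day 3 libraries spread from 1.34 to 4.91 for mitosis while the day 7 libraries stay between 3.51 and 4.28, and IR day 3 replicate 6 lies alone at a difference of 2.01.

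The correlation of each member with Mki67 over the 24 replanted libraries gave 33 values beside those of 11491 genes. The correlation was positive for 29 of 33, with a median r of 0.83, and the median over all genes was 0.01. By a two-sided permutation test adjusted over all genes, 28 of 33 members passed on the positive side (84.8%, against 24.5% of all genes) and 1 on the negative side (3.03%, against 22.1%). That test shuffled all 24 libraries freely, without regard to group, day or replicate number, so its p-values treat them as exchangeable. Cenpf was closest to Mki67 (r = 0.96, rho = 0.92), followed by Top2a (r = 0.92, rho = 0.95) and Bub1, a spindle checkpoint kinase (r = 0.90, rho = 0.88), each with the smallest permutation p possible of 1e-05 for r. Without the 2 libraries farthest from the median of Mki67 (IR day 3 replicates 6 and 2) these r were 0.93, 0.92 and 0.87. The relation was tighter within day 3 (median r of 0.89 over the members, 12 libraries) than within day 7 (0.45, 12 libraries), but the difference was not tested, and over all genes these medians were 0.04 and -0.05. Among the S phase members, Mcm2 (r = 0.90), Mcm3 (0.89), Mcm6 (0.88) and Mcm7 (0.83) followed Mki67, but within day 7 Mcm7 stood at -0.40 and Mcm5 at -0.07. Both sets held weak and strong values within day 7. The mitosis genes Ccnb2 and Kif20a stood at 0.16 and 0.17, and Top2a and Cenpf at 0.89 and 0.78. The S phase genes Mcm2 and Rrm1 stood at 0.74 and 0.75.

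The members that did not follow Mki67 were Aurka, Tyms, Cdc20 and Pcna. Aurka, the kinase that matures the spindle poles, went the other way (r = -0.63, permutation p = 0.00103, adjusted p = 0.00377; rho = -0.61, permutation p = 0.00202, adjusted p = 0.0102). Its r was -0.88 within day 3, -0.45 within day 7 and -0.58 without the 2 farthest libraries. Tyms (r = -0.39, rho = -0.20), Cdc20 (r = -0.19, rho = 0.06) and Pcna (r = -0.15, rho = -0.01) had permutation p-values for r of 0.0613, 0.379 and 0.484. Within day 7 alone, r with Mki67 was 0.61 for Cdc20, 0.28 for Pcna and 0.07 for Tyms, and these values were not tested. Ndc80 (r = 0.60) and Aurkb (r = 0.49) (adjusted p = 0.0277 and 0.0545 by the permutation test) rested on the 2 farthest libraries, without which r was 0.14 and 0.28. Aurka overlaps Fam210b in the GRCr8 gene table, and without the strand setting reads of overlapping genes cannot be told apart. The same holds for Plk1 with Ern2, Kif11 with Ide, Kif20a with Cdc23, Nusap1 with Ndufaf1 and Rrm2 with Cys1. Fam210b ran from 1.11 to 19.4 CPM in the replanted libraries. Its log2 fold change from day 3 to day 7 in edgeR was -1.16 in IR (SE 0.54, adjusted p = 0.232) and -0.50 in DR (SE 0.53, adjusted p = 0.60). The part of such reads in the level of Aurka was not tested.

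The first comparison asks whether 60 min of drying changed these genes against 5 min. At day 3, edgeR called 0 of 34 members at an adjusted p under 0.05, as it called 0% of the 11492 genes tested, and 0 members had an unadjusted p under 0.05 (313 genes of all). DESeq2 and limma-voom called 0 members as well. The median log2 fold change of DR against IR was -0.21 over the members and -0.04 over all genes, and 7 of 34 members were above 0. Among the S phase members the smallest p were those of Rrm1 (-0.39, SE 0.26, 95% interval -0.92 to 0.14), Pcna (0.27, SE 0.21) and Tyms (0.58, SE 0.62). Among the mitosis genes these were Racgap1 (-0.87, SE 0.84), Ccnb1 (cyclin B1, -0.52, SE 0.57) and Ndc80 (-0.49, SE 0.57). Mki67 (-0.49, SE 0.59, 95% interval -1.72 to 0.74), Top2a (-0.16), Cdk1 (-0.14), Mcm2 (-0.11) and Rrm2 (-0.10) lay within their standard errors, and adjusted p was at least 0.983 for every member. The median turned to 0.25, with 24 of 34 members above 0, without the 4 libraries of highest lipid gland level, and it was -0.11, with 11 above 0, without the 6 of high gland level. The sign of most members' differences at day 3 thus depended on the libraries counted. Without IR day 3 replicate 6 alone, edgeR called Tyms higher in DR (1.84, adjusted p = 0.0397), 1 of 34 members where 4.95% of all genes were called. Without IR day 3 replicate 2, Mki67 stood at 0.01, Ccnb1 at 0.03 and Top2a at 0.26.

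At day 7 the libraries lay closer together, and no difference after longer drying was detected. But edgeR estimated each gene's spread once over both days, so the day 7 standard errors do not reflect this narrower spread. For Ube2c the SD within a group was 1.63 at day 3 and 0.26 at day 7, but the SE was 0.59 at both. With 0% of all genes called (206 at an unadjusted p under 0.05), 0 of 34 members were called and 0 had an unadjusted p under 0.05. DESeq2 and limma-voom called 0 members too. A two-sided exact permutation test used the day 7 libraries alone, so the day 3 spread did not enter it. Its smallest adjusted p of a member, over all genes, was 0.976, and Ube2c had an unadjusted p of 0.511. The median log2 fold change in edgeR was -0.003 over the members and 16 of 34 were above 0. The members of smallest p were Mcm4 (-0.25, SE 0.32), Tyms (0.49, SE 0.64) and Rrm2 (-0.27, SE 0.49) for S phase, and Aurka (0.23, SE 0.31), Racgap1 (0.63, SE 0.85) and Prc1, a bundler of spindle microtubules (-0.33, SE 0.52), for mitosis. Mki67 stood at 0.26 (SE 0.59), Top2a at 0.13, Cdk1 at -0.16, Ccnb1 at -0.26, Mcm2 at 0.15 and Pcna at -0.01. Pcna had the tightest interval, -0.44 to 0.43. The interaction, the drying difference at day 7 minus that at day 3, also gave 0 called members (0% of all genes), with the smallest p for Racgap1 (1.51, SE 1.19), Mki67 (0.75, SE 0.83), Ndc80 (0.71, SE 0.81), Rrm1 (0.39, SE 0.36), Pcna (-0.28, SE 0.29) and Mcm3 (0.58, SE 0.68). No member had an unadjusted interaction p under 0.05.

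The second comparison asks how the genes changed between day 3 and day 7 of healing. Taken as the mean of the IR and DR contrasts, 3 of 34 members were called and all 3 fell (8.82%), while 18.8% of all genes were called, 797 higher and 1359 lower. The share of members called was below that of all genes. The median log2 fold change was 0.02 over the members and -0.06 over all genes, with 18 of 34 members above 0. Tyms, which makes thymidylate for DNA synthesis, fell by 1.80 (log2; SE 0.46, adjusted p = 0.013). Aurka fell by 0.77 (SE 0.22, adjusted p = 0.0194) and Cdc20, the activator of the anaphase-promoting complex, fell by 0.89 (SE 0.27, adjusted p = 0.0288). The other S phase genes named stood at -0.34 (Pcna, SE 0.15, adjusted p = 0.10), 0.28 (Mcm2) and 0.23 (Rrm2), and the mitosis genes Mki67, Top2a, Cdk1 and Ccnb1 at -0.26, -0.09, 0.02 and -0.24, none past the threshold. Leaving out 1 library at a time, Tyms kept its call in 24 of 24 fits, though its value was -1.17 without IR day 3 replicate 6, Aurka in 23 and Cdc20 in 20. Without DR day 3 replicate 2 only Tyms was called, with Aurka at -0.62 (adjusted p = 0.0533). Cdc20 lost its call in that fit and without DR day 3 replicate 3, IR day 7 replicate 2 or IR day 3 replicate 6, the last with the smallest fold change (-0.68) and the largest adjusted p (0.0639). With the replicate number as a block, Aurka and Tyms were called and Cdc20 was not (adjusted p = 0.0879). That block uses the numbers of the titles, and the deposited names number the day 7 libraries from 2 to 7, which would put other day 3 and day 7 libraries together.

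Behind the fall of Tyms stood levels of 1.23, 3.96 and 29.7 CPM (lowest, median, highest) in IR day 3 and 6.67, 10.1 and 19.8 CPM in DR day 3. At day 7 they were 0.961, 1.98 and 3.75 CPM in IR and 0.825, 2.79 and 6.69 CPM in DR, and NT stood at 7.66 CPM. In DR only the highest day 7 library reached the lowest of day 3, and in IR the groups overlapped, with replicate 6 far above the other day 3 libraries. Aurka ran at day 3 from 18.9 over 31.2 to 62.5 CPM in IR and from 23.5 over 32.8 to 58 CPM in DR, and at day 7 from 14.8 over 16.6 to 31.5 CPM in IR and from 9.34 over 24.2 to 31.1 CPM in DR. NT stood at 46.7 CPM, and the day 3 and day 7 groups overlapped in IR and in DR. Cdc20 ran from 9.35 over 28.7 to 85.2 CPM in IR day 3 and from 29.8 over 38.2 to 59.7 CPM in DR day 3. At day 7 Cdc20 ran from 12.2 over 19.7 to 29.8 CPM in IR and from 15.6 over 21.7 to 25.3 CPM in DR, with NT at 44.7 CPM. In DR all 6 day 3 libraries were above all 6 of day 7, and in IR the groups overlapped.

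A two-sided exact permutation test within IR and DR, with p adjusted over all 11492 genes, passed 3 members on the same contrast, against 23.4% of all genes. By this exact permutation test they were Tyms (p = 0.00181, adjusted p = 0.0179), Aurka (p = 0.00213, adjusted p = 0.0195) and Aurkb (p = 0.00501, adjusted p = 0.0314), and Cdc20 missed the threshold (p = 0.0265, adjusted p = 0.0844). Aurkb was higher at day 7, by 1.11 on the log2 scale in edgeR (SE 0.43, adjusted p = 0.0687), where it missed the threshold. It was at day 3 at 0, 5.29 and 7.34 CPM (lowest, median, highest) in IR and at 1.7, 5.18 and 10.5 CPM in DR, and at day 7 at 3.07, 6.72 and 19.4 CPM in IR and at 6.51, 9.55 and 19.2 CPM in DR, so the days overlapped. The 2 Aurora kinases thus had fold changes of opposite sign.

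Within each drying time the same change was not called. In IR, 0 of 34 members were called (0.139% of all genes), and 3 had an unadjusted p under 0.05, namely Aurka (-0.87, SE 0.31, adjusted p = 0.14), Tyms (-1.75, SE 0.65, adjusted p = 0.153) and Cdc20 (-0.83, SE 0.39, adjusted p = 0.229). Without IR day 3 replicate 6, Tyms stood at -0.49 and Cdc20 at -0.41. Aurkb stood at 1.21 (SE 0.60), Rrm1 at -0.38, Pcna at -0.20, Mki67 at -0.63, Top2a at -0.23, Cdk1 at 0.03, Ccnb1 at -0.37, Mcm2 at 0.15 and Rrm2 at 0.31. In DR, 0 of 34 were called (0.0087% of all genes), and 4 had an unadjusted p under 0.05. They were Tyms (-1.84, SE 0.65, adjusted p = 0.111), Cdc20 (-0.95, SE 0.39, adjusted p = 0.155), Pcna (-0.48, SE 0.21, adjusted p = 0.178) and Aurka (-0.67, SE 0.31, adjusted p = 0.197). Aurkb stood at 1.01 (SE 0.60), Mcm6 at 0.49, Mki67 at 0.12, Top2a at 0.06, Cdk1 at 0.01, Ccnb1 at -0.11, Mcm2 at 0.41 and Rrm2 at 0.14. DESeq2 called 0 members in IR and 1 in DR (Tyms), and limma-voom called 0 in both. For 6 against 6 libraries the exact test cannot give a p under 0.00216, which Cdc20 reached in DR (adjusted p = 0.0719 over all genes).

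The time contrast changed with the day 3 libraries that were counted. Without the 6 libraries of high gland level, which left 3 day 3 libraries in each of IR and DR, 0 members were called, 1 of 34 (Aurkb, 0.81, SE 0.41) was above 0 and the median was -0.56, while the median of all genes was -0.003. Tyms stood at -1.10 (SE 0.41, adjusted p = 0.25), Aurka at -0.25 (SE 0.22, adjusted p = 0.699) and Cdc20 at -0.79 (SE 0.20, adjusted p = 0.0978). Mki67 moved from -0.26 to -0.90 (SE 0.28, adjusted p = 0.175), Ccnb1 from -0.24 to -0.93 (SE 0.23, adjusted p = 0.0907), Top2a from -0.09 to -0.76 (SE 0.29, adjusted p = 0.276) and Mcm2 from 0.28 to -0.26 (SE 0.20). None of these passed the threshold. The libraries left out were all of day 3, with mitosis means of 1.34 to 3.92 log2 CPM, against 3.71 to 4.91 in the other day 3 libraries. Leaving out libraries of low member level raises the day 3 side. A downward shift of most members is therefore largely fixed by that choice and does not show a fall over time. Leaving out only the 4 libraries of highest lipid gland level gave 0 called members and a median of -0.41. Limma-voom on all 24 libraries called 2 members (Aurka and Tyms, both lower), but gave 27 of 34 members above 0 and a median of 0.38, and with sample quality weights it called 24, 21 of them higher at day 7, in a fit that called 50.4% of all genes. Limma-voom without weights called 19.6% of them. The direction of most members over time therefore differed between these fits, while Tyms, Aurka and Cdc20 were below 0 in each of them. The ligament and lipid gland sums given above moved with the same day 3 libraries, and their part in the change over time was not tested.

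**Figure D4:**
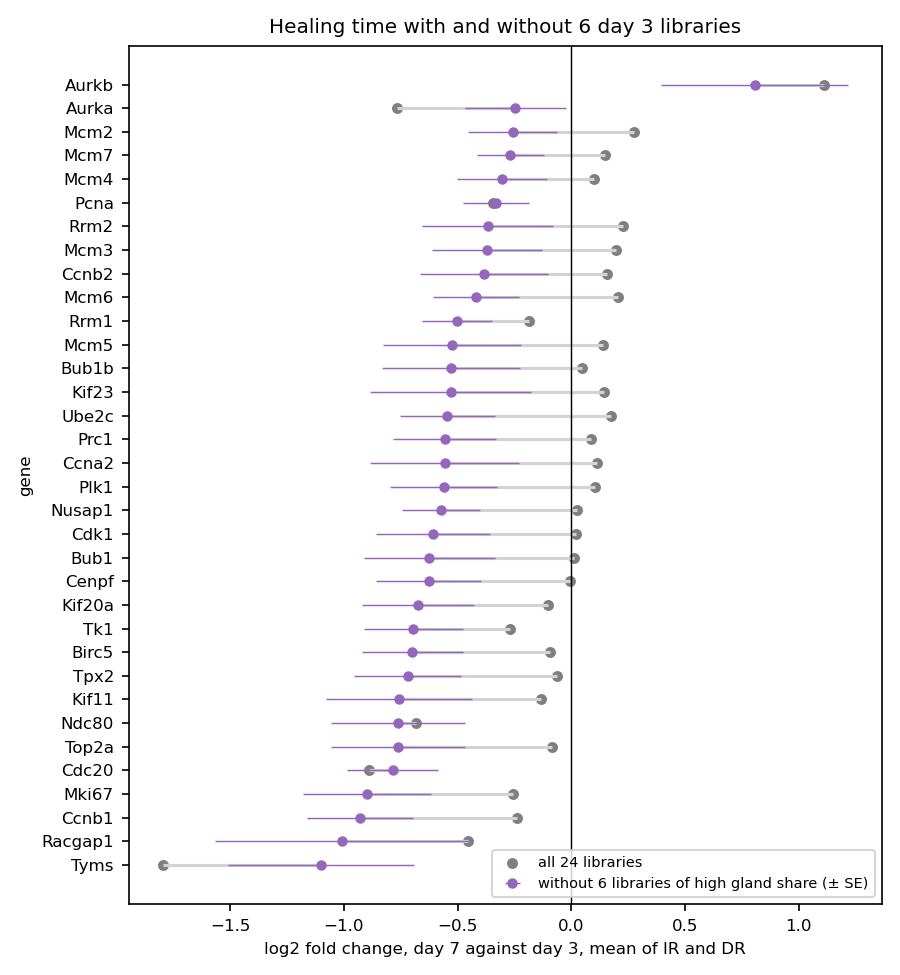
Log2 fold change of each of the 34 members from day 3 to day 7 (x axis, mean of the IR and DR contrasts in edgeR; y axis, genes), with all 24 replanted libraries (gray) and without 6 day 3 libraries of high gland level (purple, bars are SE). Without those libraries 33 of 34 members lie below 0, and Aurkb alone lies above. The libraries left out include those of lowest mitosis mean at day 3, so most values shift down by that choice.

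Other genes of the cell cycle were read from a list of 116 symbols, of which 104 had an entry and 100 were tested. Between day 3 and day 7 (mean of IR and DR), 2 rose and 1 fell, against 6.93% of all genes higher and 11.8% lower, and in the other 5 contrasts 0 of 100 were called (with 0 to 7 at an unadjusted p under 0.05). The 2 that rose were among 8 tested inhibitors, whose median was 0.58. Cdkn1c, an inhibitor of cyclin-dependent kinases, rose by 0.93 (SE 0.23, adjusted p = 0.0118), and its libraries ran from 8.22 to 50 CPM (IR) and from 19.5 to 76.3 CPM (DR) at day 3, and from 47.3 to 102 CPM (IR) and from 55 to 93.6 CPM (DR) at day 7. Btg2, an antiproliferative gene, rose by 0.99 (SE 0.28, adjusted p = 0.0185). Without the 6 libraries of high gland level Cdkn1c kept its call at 0.81 (SE 0.16, adjusted p = 0.0421), and Btg2 lost it at 0.61 (SE 0.26, adjusted p = 0.334). Kif2c, a kinesin that takes microtubules apart, fell by 0.92 (SE 0.30, adjusted p = 0.0378), and it kept the call in 8 of 24 fits that each left out 1 library. Of 15 tested genes of G1 entry, 33 of replication and 44 of mitosis, 0, 0 and 1 were called, with medians of -0.16, -0.05 and 0.03. Of those with no call, the smallest p in the drying contrast was that of Chaf1b at day 3 (-1.23, SE 0.51), a histone chaperone of replicating DNA, and of Gins4 at day 7 (-0.61, SE 0.30), a part of the helicase complex.

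The last comparison sets NT beside the replanted groups. NT is 1 library, so it has no spread and no test. All 34 members had a log2 ratio of NT to the mean of the replanted groups above 0 (with 5 CPM added to both), against 41.6% of all genes, and the median was 0.64 against -0.10. NT was above all 24 replanted libraries for 12 members (9.1% of all genes) and past a log2 ratio of 1 for 11 (3.36% of all genes). The highest ratios were those of Mcm6 (1.81), Ccnb2 (cyclin B2, 1.68), Ube2c (1.56), Plk1 (the Polo kinase, 1.54) and Birc5 (survivin, of the chromosomal passenger complex, 1.5). Mcm6 stood at 106 CPM in NT and at 3.61 to 66.5 CPM in the replanted libraries, and Ube2c at 138 CPM against 4.61 to 106 CPM. The lowest ratios were those of Ndc80 (0.02), Bub1 (0.03), Tyms (0.20), Mcm3 (0.24) and Racgap1 (0.24). Bub1 was at 8.72 CPM in NT and at 1.0 to 20.2 CPM in the replanted libraries. By group, the members' median ratio at day 3 was 0.57 against IR and 0.74 against DR, and at day 7 it was 0.73 and 0.79. The 11 S phase members had a median of 0.70 and the 23 mitosis members 0.62. In the same library the 7 erythroid precursor markers with an entry summed to 39967 CPM, against 803 to 17205 in the replanted libraries, and the 7 granulocyte precursor markers to 1576 CPM, against 0.509 to 297. Ribosomal RNA took 2.93% of the counts of NT and 9.81% to 34.1% of those of the replanted libraries. With ribosomal RNA entries left out of the scaling, the median ratio was 0.73 for S phase and 0.64 for mitosis members. Many erythroid and granulocyte precursors divide, but the erythroid list holds globin genes (Hba1, Hbb), so its sum does not count dividing cells. The part of these differences in the NT levels was not tested.

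**Figure D5:**
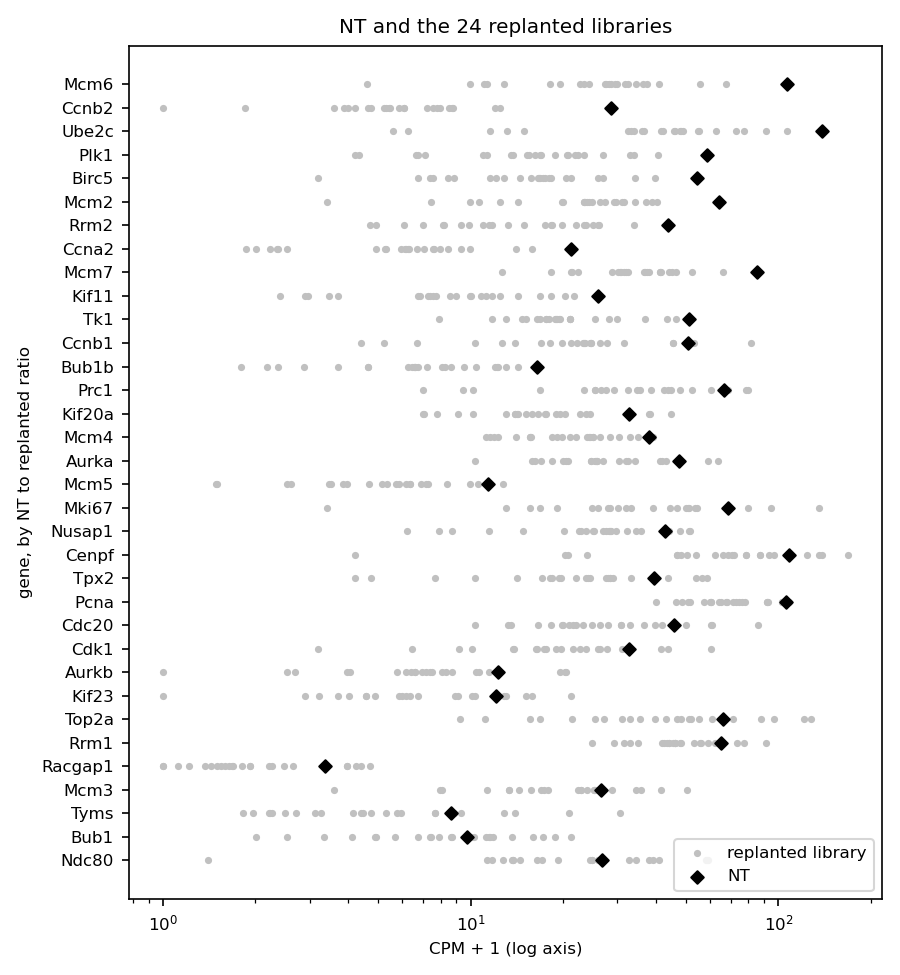
Level of each member in NT (black diamonds) and in the 24 replanted libraries (gray points), x axis CPM + 1 on a log scale, y axis genes ordered by the ratio of NT to the replanted mean. NT lies to the right of all gray points for 12 members, among them Mcm6 at 106 CPM, and within them for Ndc80 and Bub1.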

How the data were processed

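Per the labels' protocols, 500 ng of total RNA per library was made into Lexogen QuantSeq libraries, which read the 3′ end of transcripts. The authors deposited whole-number read counts per gene symbol, 1 table per library, not normalised. Bowtie2, edgeR, mm10 and rn6 are named in the submitters' processing notes, without their roles. The counter, annotation and strand setting were not given in the sources used here. The members and gene lists were chosen with earlier results of these data known.

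The highest entry was taken for a repeated symbol. Counts of the 24 replanted libraries were fitted with edgeR 4.0.16 (R 4.3.3), with TMM scaling, a filter by group and a quasi-likelihood test on 4 group means (20 residual degrees of freedom), for 6 contrasts with Benjamini-Hochberg adjustment over 11492 genes (threshold 0.05). Levels are CPM, or log2 CPM with a prior count of 2, both scaled with the TMM factors. Exact permutation tests and 100000 permutations of each correlation with Mki67 were adjusted over all genes. Alternatives used DESeq2 1.42.0, limma 3.58.1, other scalings and filters, and left-out libraries. The edgeR steps were tested on simulated data with the same dispersion in every gene and group. That test does not cover the unequal spread of day 3 and day 7.

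Named were called members, the 3 S phase and 3 mitosis members of smallest p where none was called, Mki67, Top2a, Cdk1, Ccnb1, Pcna, Mcm2 and Rrm2, called other cell cycle genes, and the extremes in level, SD and NT ratio. Other named members were chosen after their values were seen. IR and DR share replicate numbers in the labels. Deviations of same-numbered libraries correlated at 0.21 to 0.72 in all 6 pairs at day 7, so the numbers pair the libraries there, as a result of the data and not of the labels. At day 3 they correlated at -0.41 to 0.21, with no pairing.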

Additional observations from a re-analysis of the deposited data

Results flagged for a closer look

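In groups of 6 libraries, 60 checks compared the gap between the highest or lowest library and its nearest neighbour with the whole range of the group, and 4 exceeded Dixon's 95% critical value. Chance gives about 5% of such groups. In IR day 3, replicate 6 had an S phase minus mitosis difference of 2.01 on the log2 scale, with the nearest library at 0.193 (gap over range 0.9). The same library was the lowest for Ndc80, at -0.537 log2 CPM, with the nearest at 4.59 (gap over range 0.801).

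In IR day 7, replicate 6 was the highest for Aurka, at 4.99 log2 CPM, with the nearest at 4.3 (gap over range 0.647). It was the lowest for Pcna, at 5.29 log2 CPM, with the nearest at 5.89 (gap over range 0.635). That library was the lowest of its group for 21 of 34 members (61.8%) and for 29.6% of all genes.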

How the results depend on the processing

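Top2a and Ccnb1, not called and below 0 between days over both drying times in edgeR, were called higher with sample quality weights (0.79 and 0.63 on the log2 scale). In that limma-voom fit 2 members were called between IR and DR at day 3 (Cdc20 and Tyms; 13.3% of all genes), 4 between days in IR (39.1%), 16 in DR (34.2%), 24 over both (50.4%) and 1 in the interaction (Cdc20; 6.71%). DESeq2 called 1 between days in DR (9.3% of all genes). Over both drying times, 0 were called without the 6 libraries of high gland level, and 0 without the 4 of highest lipid gland level, an alternative chosen after seeing the data. Leaving out 1 library at a time, members called ranged from 0 to 1 between IR and DR at day 3 and between days in DR (1 without IR day 3 replicate 6), from 1 to 4 between days over both (1 without DR day 3 replicate 2, 4 without DR day 3 replicate 4), and stayed at 0 elsewhere. In the same fits the genes called of all tested ranged from 0 to 576, from 0 to 1420 and from 1375 to 2916 in these 3 contrasts. S phase minus mitosis without Tyms, Aurka and Cdc20, also chosen after seeing the data, was 0.67 in NT and, at day 7, 0.61 for IR and 0.66 for DR. The cause of these shifts was not tested. With the replicate number as a block in the fit of 24 libraries, 2 members were called over both drying times (Aurka and Tyms), against 3 without it, and 0 in the other 5 contrasts. That block sets 1 effect per number for both days, although the numbers showed no pairing at day 3. It therefore does not isolate the pairing seen at day 7, and the main fit left the numbers out. Over the members alone, deviations of same-numbered libraries at day 7 correlated at -0.18 to 0.43. Another scaling, no filter on low counts, ribosomal RNA left out and summed symbols kept each count of called members within 1.5 times. Low counts limit Racgap1, Tyms and Mcm5, and NT is 1 library.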
